A study of Mus musculus with 8 samples.

Results

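MHC class I molecules carry short peptides from inside the cell to its surface, where CD8+ T cells and natural killer cells read them. The 10 genes described here encode chains of these molecules, the machinery that loads them, and their transcriptional activator: H2-K1, H2-D1, H2-Q7, H2-T23, H2-M3, B2m, Tap1, Tap2, Tapbp and Nlrc5. They were taken by symbol from a table of 13786 protein-coding genes, and all 10 were present. RNA was sequenced from CD11c-positive splenocytes, labelled as dendritic cells, of 4 C57BL/6 mice and 4 B6.SLE123 mice. All mice were female and 7 weeks old, and no treatment is given for them. B6.SLE123 is a lupus-prone strain that carries intervals named Sle1, Sle2 and Sle3 on a C57BL/6 background, and the intervals lie on other chromosomes than the 10 genes. The comparison asks how expression in these cells differs between the strains at an age at which the lupus-prone mice have no overt disease.

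In an antigen-presenting cell, proteasomes cut proteins into peptides, and the TAP transporter, made of Tap1 and Tap2, carries them into the endoplasmic reticulum. There tapasin, the product of Tapbp, holds an empty class I chain beside the transporter until a peptide fits. The chain is stable only together with beta-2-microglobulin, the product of B2m. Nlrc5 is the transactivator that acts on the promoters of class I genes, B2m, Tap1 and the immunoproteasome subunits. Dendritic cells express the whole pathway strongly, since they prime CD8+ T cells.

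Each library held between 25563070 and 37367094 counts. Values below are counts per 1000000 counts of the scaled library (CPM). The labelled cell type was checked on 8 general dendritic cell markers. All were in the table, 7 of them were higher in the lupus-prone strain, and Itgax, which encodes CD11c, was at 1329 ± 77.9 CPM against 1543 ± 93.4 CPM (SD, n = 4 each). Higher and lower in these lists mean an adjusted p below 0.05 (quasi-likelihood test in edgeR), which 53.4% of all genes passed. Markers of other cells were present too. The 10 red pulp macrophage markers, led by Vcam1, summed to between 12080.0 and 15273 CPM in C57BL/6 and to between 1716 and 3435 CPM in B6.SLE123 mice, and 10 of 10 were lower. The 10 markers of type 1 conventional dendritic cells, the subset known for presentation on class I, summed to between 3478 and 4017 CPM in C57BL/6 and to between 5790.2 and 7702 CPM in B6.SLE123 mice, with 8 higher and 1 lower. Of 10 markers of type 2 conventional dendritic cells, 1 was higher and 3 were lower, with sums of 2566 to 2738 CPM against 1705 to 1982 CPM. Of 10 markers of plasmacytoid dendritic cells, 2 were higher and 4 were lower, with sums of 510 to 545 CPM against 425 to 512 CPM. Of 10 B cell markers, 1 was higher and 7 were lower, with sums of 788 to 893 CPM against 682 to 805 CPM. Of 10 natural killer cell markers, 1 was higher and 1 was lower, with sums of 51.4 to 72.4 CPM against 57.2 to 76.8 CPM. Their median log2 fold change was -0.34, while the median sum was 56.0 CPM in C57BL/6 and 63.2 CPM in B6.SLE123 mice. Of 9 erythroid markers, 8 were lower, with sums of 63.7 to 263 CPM against 4.97 to 34.2 CPM. Of 9 neutrophil markers, 3 were higher and 2 were lower, with sums of 49.5 to 64.5 CPM against 12.8 to 32.6 CPM, and of 9 T cell markers, 2 were higher and 1 was lower, with sums of 355 to 413 CPM against 421 to 553 CPM. These sums were led by Mmp9 and Cd4, and the median log2 fold changes of both lists went the other way, at 0.28 and -0.21. All 10 proliferation markers were higher, with sums of 473 to 528 CPM against 897 to 1229 CPM. Every gene of the table had a median of at least 5 counts in at least 1 strain, so detection of a marker in it was fixed in advance. Trac, Elane and Ahsp, of the T cell, neutrophil and erythroid lists, were absent from the table. Their part in the differences below was not tested, and in bulk RNA fewer cells of a type and less RNA per cell cannot be told apart.

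Of the 10 genes, 8 lie on chromosome 17 in mm10, at or beside the major histocompatibility complex. B2m lies on chromosome 2 and Nlrc5 on chromosome 8. RefSeq promoter windows of GRCm38.p6, the assembly of mm10, were matched for 8 of the 10 genes, each running from 250 bases before to 50 bases after an annotated start. Tap2 and Nlrc5 had no entry. The windows of Tap1 and H2-Q7, which were higher in B6.SLE123 mice, are shown with those of H2-K1 and B2m, whose difference did not pass the threshold. Capitals mark matches, on either strand, to the ISRE letters GAAANNGAA, the core of the cAMP response element (CRE) TGACG, the Y box CCAAT, the TATA box TATAAA and the NF-kappaB letters GGGNNTTCC. The windows are chr17:34187306-34187605 on the plus strand for Tap1, chr17:35438905-35439204 on the plus strand for H2-Q7, chr17:34000298-34000597 on the minus strand for H2-K1, and chr2:122147437-122147736 on the plus strand for B2m. For H2-K1, which has 2 annotated starts, the first in the table was used.
Tap1: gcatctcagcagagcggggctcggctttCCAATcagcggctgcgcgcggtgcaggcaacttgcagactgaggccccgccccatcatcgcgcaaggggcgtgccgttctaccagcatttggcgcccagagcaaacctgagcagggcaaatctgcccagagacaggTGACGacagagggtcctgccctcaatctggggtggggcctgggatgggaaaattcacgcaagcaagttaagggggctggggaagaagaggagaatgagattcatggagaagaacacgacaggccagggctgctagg
H2-Q7: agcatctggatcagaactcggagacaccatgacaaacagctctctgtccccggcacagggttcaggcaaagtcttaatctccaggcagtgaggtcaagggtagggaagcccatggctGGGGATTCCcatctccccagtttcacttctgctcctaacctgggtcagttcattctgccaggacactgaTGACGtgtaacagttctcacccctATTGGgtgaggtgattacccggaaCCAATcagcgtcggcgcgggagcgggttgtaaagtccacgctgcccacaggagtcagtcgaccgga
H2-K1: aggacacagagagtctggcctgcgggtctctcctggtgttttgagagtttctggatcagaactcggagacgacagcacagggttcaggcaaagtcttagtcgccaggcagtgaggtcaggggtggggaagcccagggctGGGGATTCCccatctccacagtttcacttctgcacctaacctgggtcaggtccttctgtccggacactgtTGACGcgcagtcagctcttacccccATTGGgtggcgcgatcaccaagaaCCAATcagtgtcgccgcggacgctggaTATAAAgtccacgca
B2m: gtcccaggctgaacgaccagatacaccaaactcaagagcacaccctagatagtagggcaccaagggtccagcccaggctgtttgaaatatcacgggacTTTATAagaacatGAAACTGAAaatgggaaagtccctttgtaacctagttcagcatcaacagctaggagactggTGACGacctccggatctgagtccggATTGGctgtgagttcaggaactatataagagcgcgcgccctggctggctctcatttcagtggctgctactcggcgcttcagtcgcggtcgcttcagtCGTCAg

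The TGACG letters stood in 6 of the 8 windows, against 20.8% of all 32851 windows in the table. A Y box stood in 8 of the 8 windows, against 37.4% of all windows. The NF-kappaB letters were found in H2-K1, H2-D1 and H2-Q7, as the same run GGGGATTCC in each, against 5.82% of all windows. ISRE letters stood in B2m and H2-T23, against 8.56% of all windows, and the TATA box letters in H2-K1, H2-D1 and B2m, against 13.6%. Other forms of the ISRE were not searched, so a window without these letters may still hold one. The run TTTCACTTCT, which these letters do not match, stands in the windows of H2-K1, H2-D1, H2-Q7 and H2-M3 and was not counted. In 5 of the 8 windows TGACG was followed by ATTGG, the Y box on the other strand, at 25 bases from first letter to first letter in H2-K1, H2-D1, H2-M3 and B2m and at 24 bases in H2-Q7, a spacing noticed after the matches were seen. In H2-K1 the TATA box letters lie 35 bases after the annotated start used here. In B2m they stand on the opposite strand, as TTTATA, 152 bases before the start. In a global alignment the windows of H2-Q7 and H2-K1 were identical in 68.2% of columns and those of H2-Q7 and its neighbour H2-Q6 in 75.0%. The annotated start of Tap1 lies 226 bases from that of Psmb9, an immunoproteasome gene read in the opposite direction, so the window of Tap1 shown above reaches past the start of Psmb9. These matches describe letters only and do not show binding.

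In the comparison of the strains, 4 of the 10 genes passed an adjusted p of 0.05 (quasi-likelihood test in edgeR) as higher in B6.SLE123 mice, and 0 passed it as lower. The genes that rose were H2-Q7, Tap1, Nlrc5 and Tap2, by 1.19-fold to 1.39-fold. The main classical chains H2-K1 and H2-D1 and their partner B2m differed by less than the spread between mice. Over all genes tested, 53.4% passed the same threshold and 26.7% passed it as higher in B6.SLE123 mice, so the share of the 10 genes was below the former and above the latter. Their median log2 fold change was 0.10, or 0.07 without B6.SLE123 mouse 2, against -0.002 over all genes. The 4 mice of a strain did not overlap with those of the other for 3 of the 10 genes, Tap1, Tap2 and H2-Q7, against 48.9% of all genes. The 10 genes together took between 0.935% and 1.03% of all counts in C57BL/6 and between 0.979% and 1.06% in B6.SLE123 mice.

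**Figure D1:**
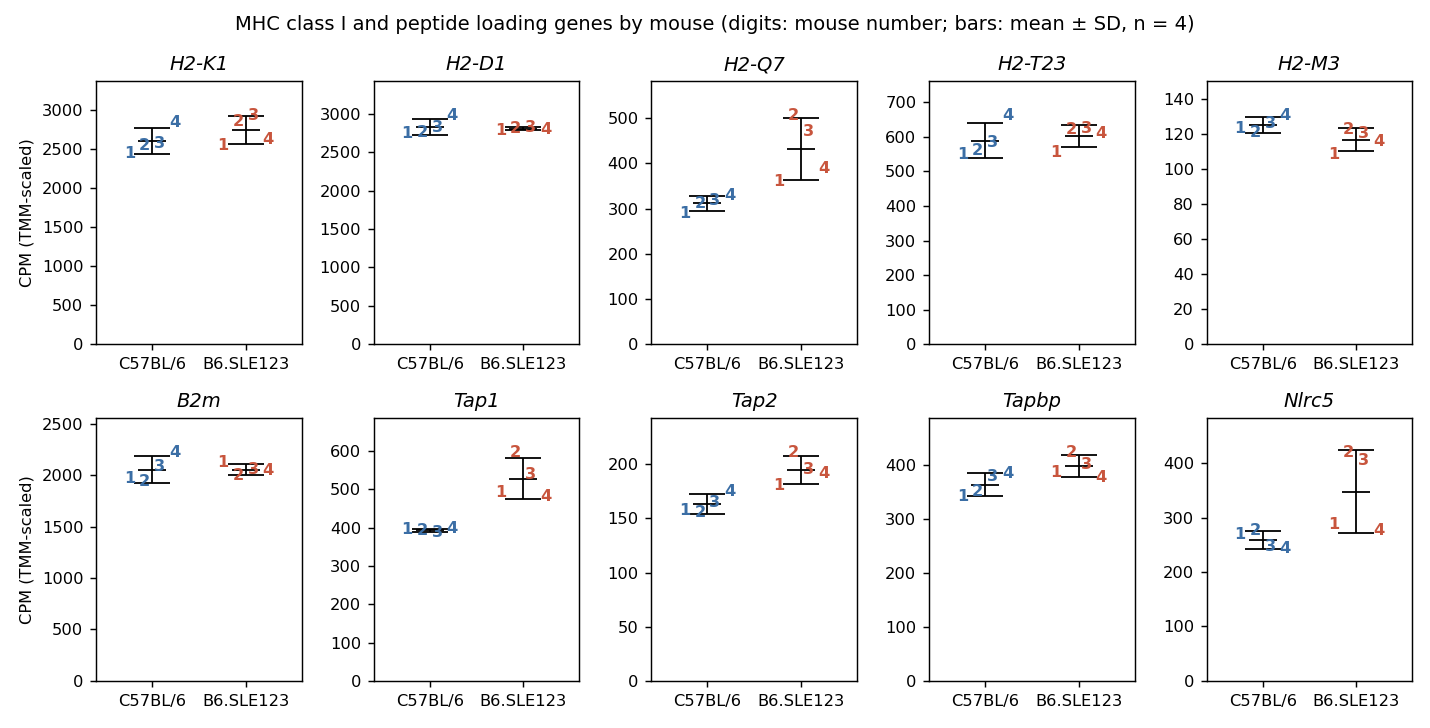
Expression of the 10 genes in each mouse, in CPM on linear axes that start at 0. Digits are the mouse numbers of C57BL/6 (blue) and B6.SLE123 (red), and black bars are the mean ± SD (n = 4). The strains do not overlap for H2-Q7, Tap1 and Tap2, and B6.SLE123 mice 2 and 3 stand above mice 1 and 4 for Nlrc5.

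H2-K1 and H2-D1 encode the classical chains that present peptides to CD8+ T cells. H2-K1 (ENSMUSG00000061232.16, minus strand of chromosome 17, 33996017 to 34000347) was at 2446, 2539, 2574 and 2832 CPM in C57BL/6 mice 1 to 4 and at 2548, 2851, 2929 and 2622 CPM in B6.SLE123 mice 1 to 4. The strains overlapped, and the fitted log2 fold change of H2-K1 was 0.08 with a 95% interval of -0.06 to 0.21 (standard error 0.06, adjusted p = 0.328, edgeR). H2-D1 (ENSMUSG00000073411.12, plus strand of chromosome 17, 35262730 to 35267499) was at 2743, 2761, 2818 and 2978 CPM against 2779.8, 2809, 2825 and 2791 CPM. All 4 B6.SLE123 values lay inside the C57BL/6 range. Its log2 fold change was -0.01 with a 95% interval of -0.11 to 0.08 (standard error 0.04, adjusted p = 0.835, edgeR). In this bulk RNA that interval runs from 0.928-fold to 1.06-fold.

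H2-Q7 encodes a non-classical chain of the Qa-2 family, which can be tethered to the membrane by a lipid anchor. H2-Q7 (ENSMUSG00000060550.16, plus strand of chromosome 17, 35439155 to 35443773) was at 289, 311, 317 and 329 CPM in C57BL/6 mice and at 361, 506, 471 and 388 CPM in B6.SLE123 mice. Every B6.SLE123 mouse was above every C57BL/6 mouse, and mice 2 and 3 were highest. On the log2 scale H2-Q7 rose by 0.47 ± 0.10 (SE; 95% interval 0.26 to 0.68, adjusted p = 0.00183, edgeR), and the exact two-sided permutation test gave p = 0.0286, the smallest that 4 against 4 mice allow. Class I chains resemble each other, so some reads of H2-Q7 may not be assigned to 1 gene: 26.4% of the 50-base words of its transcripts also occur in transcripts of other genes, as do 12.0% of its 100-base words. The same shares were 9.63% and 0.957% for H2-K1 and 12.8% and 3.59% for H2-D1, and for B2m and Nlrc5 no word was shared.

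H2-T23 encodes Qa-1, which presents leader peptides of other class I chains to NKG2 receptors. H2-T23 (ENSMUSG00000067212.8, minus strand of chromosome 17, 36029773 to 36032855) was at 550.2, 559, 584 and 662 CPM against 554, 621, 625 and 609 CPM, with a log2 fold change of 0.03 and a 95% interval of -0.11 to 0.18 (standard error 0.06, adjusted p = 0.687, edgeR). H2-M3 presents peptides that begin with N-formyl methionine. H2-M3 (ENSMUSG00000016206.6, plus strand of chromosome 17, 37270220 to 37274484) was at 123, 120.5, 126 and 131 CPM against 108, 123, 120.4 and 116 CPM. Its difference of -0.10 ± 0.05 on the log2 scale (SE; 95% interval -0.21 to 0.01, adjusted p = 0.107, edgeR) did not pass the threshold, and the strains overlapped.

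B2m (ENSMUSG00000060802.8, plus strand of chromosome 2, 122147686 to 122153083) was at 1972, 1942, 2080.1 and 2225 CPM in C57BL/6 mice and at 2119, 1994, 2053 and 2049 CPM in B6.SLE123 mice. The strain means were 2054 ± 128 CPM and 2054 ± 51.3 CPM (SD, n = 4 each), and the 95% interval of the log2 fold change ran from -0.11 to 0.11 (standard error 0.05, adjusted p = 0.994, edgeR). A change of B2m beyond 0.924-fold or 1.08-fold lies outside that interval.

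The genes of the peptide transporter rose. Tap1 (ENSMUSG00000037321.17, plus strand of chromosome 17, 34187553 to 34197225) was at 395, 392, 386 and 398 CPM in C57BL/6 mice, a spread of 1.23% of the mean, and at 492, 597, 539.7 and 482 CPM in B6.SLE123 mice. The lowest B6.SLE123 mouse was above the highest C57BL/6 mouse by more than the whole C57BL/6 range. On the log2 scale Tap1 rose by 0.43 ± 0.06 (SE; adjusted p = 0.000213, edgeR), or 1.34-fold with a 95% interval of 1.22-fold to 1.48-fold. Tap2 (ENSMUSG00000024339.12, plus strand of chromosome 17, 34203527 to 34216321) was at 157, 155, 165 and 175 CPM against 181, 211, 195 and 192 CPM, without overlap. Tap2 rose by 0.25 ± 0.06 on the log2 scale (SE; adjusted p = 0.00302, edgeR). The difference between the transporter genes was not tested. Exons of Tap1 overlap Psmb9, and exons of Tap2 overlap Gm20496 and Gm15821, on the opposite strand, and whether strand entered the counting is not given in the sources used here.

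Tapbp (ENSMUSG00000024308.15, plus strand of chromosome 17, 33915899 to 33929292) was at 341, 349, 378 and 383 CPM in C57BL/6 mice and at 386, 423, 400.3 and 376 CPM in B6.SLE123 mice. B6.SLE123 mouse 4 lay inside the C57BL/6 range and the other 3 lay above it. The difference of 0.13 ± 0.05 on the log2 scale (SE; adjusted p = 0.0629, edgeR) was short of the threshold, and with upper quartile scaling it passed (log2 fold change 0.15, adjusted p = 0.0386, edgeR). Exons of Tapbp overlap Zbtb22 on the same strand and Gm19412 on the other.

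Nlrc5 (ENSMUSG00000074151.13, plus strand of chromosome 8, 94434356 to 94527272) was at 268, 277, 247 and 243 CPM in C57BL/6 mice and at 288, 420.4, 406 and 276 CPM in B6.SLE123 mice. Mice 2 and 3 were far above every C57BL/6 mouse, while mouse 4 lay just below the highest of them and mouse 1 just above. The spread was 6.35% of the mean in C57BL/6 and 21.9% in B6.SLE123 mice, the widest of the 10 genes. On the log2 scale Nlrc5 rose by 0.43 ± 0.13 (SE; adjusted p = 0.0162, edgeR), and over the alternatives its adjusted p ran from 0.00208 to 0.0499. The exact two-sided permutation test on the same gene gave p = 0.0571. Exons of Nlrc5 overlap 9330175E14Rik on the opposite strand.

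**Figure D2:**
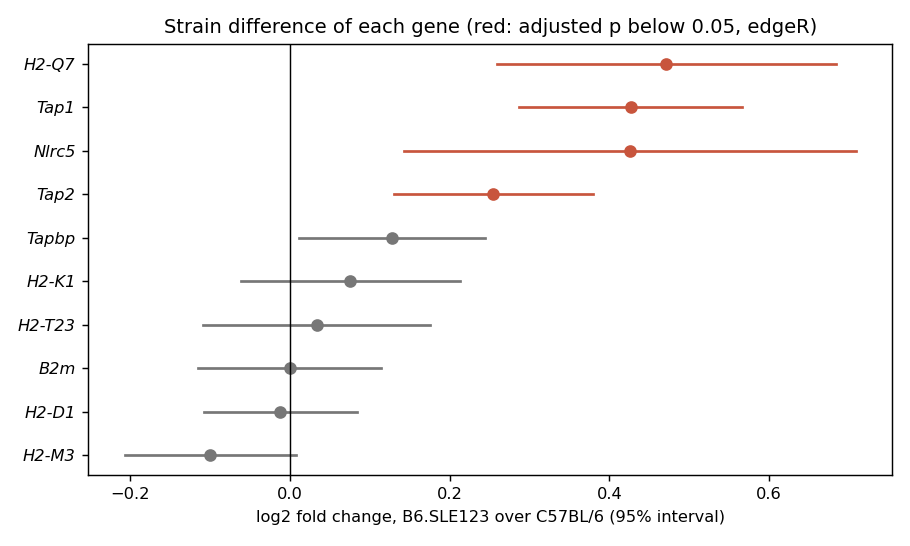
Log2 fold change of each gene, B6.SLE123 over C57BL/6, with its 95% interval from edgeR, ordered by size. Red marks an adjusted p below 0.05. H2-Q7, Tap1, Nlrc5 and Tap2 lie at 0.47, 0.43, 0.43 and 0.25, and the intervals of B2m, H2-D1, H2-T23, H2-K1 and H2-M3 hold 0.

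A ratio to B2m within a mouse does not depend on how libraries are scaled. Relative to B2m, Tap1 was higher in B6.SLE123 mice by 0.42 on the log2 scale, H2-Q7 by 0.46, Tap2 by 0.25 and Tapbp by 0.13, each without overlap between strains (exact two-sided permutation test, p = 0.0286 for each). The ratio of Nlrc5 to B2m differed by 0.40 but overlapped (exact p = 0.171), as did those of H2-K1 (0.07, exact p = 0.314), H2-T23 (0.03, exact p = 0.629), H2-M3 (-0.10, exact p = 0.114) and H2-D1 (-0.01, exact p = 0.657). Without B6.SLE123 mouse 2 the ratio of Tapbp differed by 0.08. The exact p-values of the permutation test were not adjusted over the 9 ratios, and 0.0286 is the smallest that 4 against 4 mice allow. Over all other genes, 42.1% had a ratio to B2m that did not overlap between the strains, against 4 of these 9. The ratio of Tap2 to B2m was the tightest in C57BL/6 mice, with a standard deviation of 0.0093 on the log2 scale, and was at 0.129 in B6.SLE123 mice.

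Levels of different genes were compared as RPKM, which is CPM per kilobase of exon. In C57BL/6 mice B2m was highest, at 2389 ± 149 RPKM (SD, n = 4), followed by H2-D1 at 1095 ± 41.4 RPKM and H2-K1 at 884 ± 56.3 RPKM. H2-T23 stood at 204 ± 17.6 RPKM, Tapbp at 100.02 ± 5.71, H2-M3 at 86.9 ± 3.03, H2-Q7 at 73.0 ± 3.91, Tap1 at 71.7 ± 0.883, Tap2 at 43.2 ± 2.41 and Nlrc5 at 30.5 ± 1.93 RPKM. Of neighbours in this order, H2-Q7 and Tap1 overlapped among the 4 mice and the others did not. In B6.SLE123 mice the order was the same down to Tapbp at 109 ± 5.58 RPKM, after which H2-Q7 at 101 (lowest 84.6, highest 119) and Tap1 at 96.4 ± 9.63 stood above H2-M3 at 81.1 ± 4.50 RPKM. There the ranges of Tapbp and H2-Q7, of H2-Q7 and Tap1, and of Tap2 and Nlrc5 overlapped. With the length of the longest transcript in place of all exons, H2-K1 stood above H2-D1, at 1386 against 1344 RPKM in C57BL/6 mice, so their order depends on the length used.

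Summed per length, the 5 chains among the 10 genes were at 0.981 ± 0.021 times the level of B2m in C57BL/6 mice and at 1.01 ± 0.0618 times in B6.SLE123 mice (SD, n = 4 each). Other class I chains in the table were left out, such as H2-Q6 at 153 RPKM in C57BL/6 mice, so the ratio depends on the chains counted. With the longest transcripts the ratios were 1.30 and 1.34.

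**Figure D3:**
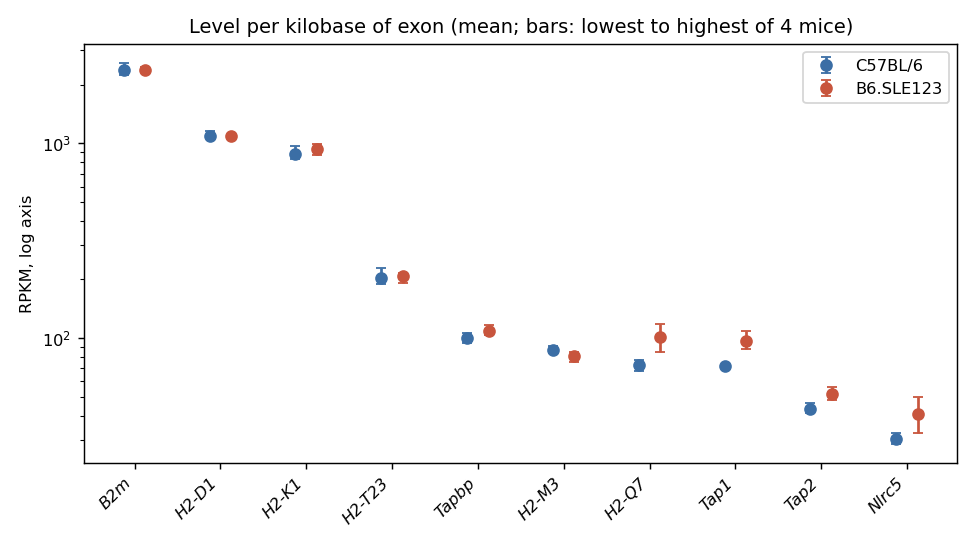
Level of each gene in RPKM on a log axis, C57BL/6 in blue and B6.SLE123 in red. Points are means and bars run from the lowest to the highest of 4 mice. Levels range from 2389 RPKM for B2m to 30.5 RPKM for Nlrc5 in C57BL/6 mice, and Tap1 and H2-Q7 pass H2-M3 in B6.SLE123 mice.

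The B6.SLE123 mice also differed among themselves. Mice 2 and 3 were the 2 highest of the 4 for 9 of the 10 genes, B2m being the exception, whereas this held for 17.7% of all 13786 genes. This order was noticed after the values were seen and is given without a test. For H2-D1 the 4 B6.SLE123 values spread by only 0.717% of their mean. The order held for 4 of the 7 other class I chains in the table. The same was true of 6 of 15 genes for peptide supply and folding, 6 of 17 for promoter control and 7 of 20 interferon response genes. It held for 2 of 10 receptors that read class I and 1 of 15 genes of the cross-presentation list described below. Among 5 class I-like chains outside the complex and 13 class II presentation genes it held for 0. Irf1, an interferon-induced activator of class I genes, was at 219.6, 260.5, 250.4 and 218.5 CPM in B6.SLE123 mice 1 to 4, against 217 to 264 CPM in C57BL/6 mice. Among marker lists, mice 2 and 3 were the 2 lowest B6.SLE123 mice for T cell markers, which summed to 489, 477, 421 and 553 CPM in mice 1 to 4, and for erythroid markers, at 27.8, 17.1, 4.97 and 34.2 CPM. Red pulp markers summed to 2238, 1716, 2977 and 3435 CPM and type 1 conventional dendritic cell markers to 6964, 7702, 6407 and 5790.2 CPM in the same mice, without mice 2 and 3 at 1 end. The part of these cells in the order of the mice was not tested. Mice 2 and 3 also had the 2 largest B6.SLE123 libraries, at 37367094 and 33636314 counts, and the part of depth was not tested.

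**Figure D4:**
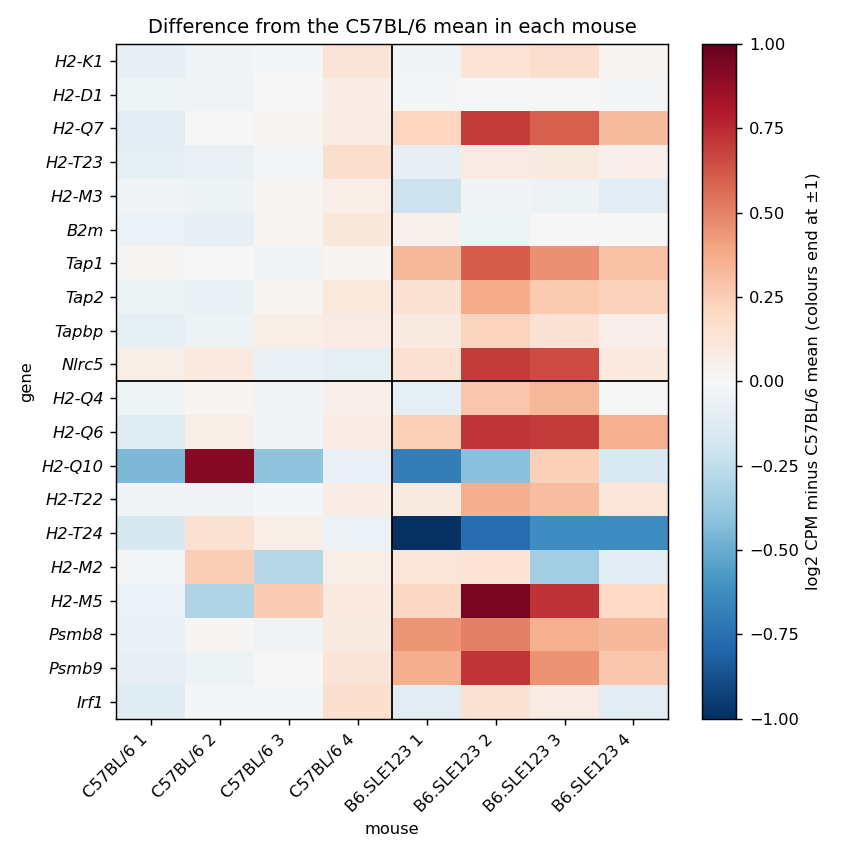
Log2 CPM of each gene in each mouse minus its C57BL/6 mean, red for higher and blue for lower, with colours ending at ±1. The 10 genes stand above the horizontal line and other class I chains, Psmb8, Psmb9 and Irf1 below it. In the rows of Nlrc5, H2-Q7, H2-Q6 and H2-M5, B6.SLE123 mice 2 and 3 are a darker red than mice 1 and 4.

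Genes whose values over the 8 mice lay closest to those of a member were named by the mean absolute difference of log2 CPM after centring each gene, among 10620 genes with a mean of at least 100 counts. For Tap1 they were Cntrob, Xpo1 and Tmpo, at 0.026, 0.032 and 0.035. For Nlrc5 they were Arhgef10, Arhgap33 and Gen1, at 0.070, 0.077 and 0.088. The measure is not scaled by a gene's own spread, and that of Nlrc5 in B6.SLE123 mice was the widest of the 10 genes. The larger distances therefore do not show that Nlrc5 was followed less closely. Srp19, Hadha and Trir lay closest to B2m, at 0.016 to 0.020, and Ppid, Gpank1 and Zswim1 to H2-K1, at 0.029 to 0.031. None of the 12 is another of the 10 genes.

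Around the 10 genes, 101 genes of the class I pathway and of compared lists were in the table, each counted once. In the lupus-prone strain 31 passed the threshold as higher and 25 as lower, shares close to those of all genes, of which 3683 were higher and 3673 lower of 13786. Of 23 other class I chains listed, 7 were in the table, with 3 higher and 1 lower. That is 57.1% against 53.4% of all genes. Their median log2 fold change of 0.14 was 0.08 without B6.SLE123 mouse 2 and 0.07 without mouse 3. H2-Q6, the neighbour of H2-Q7, rose from 319 ± 20.6 to 456 ± 74.5 CPM (SD, n = 4; log2 fold change 0.51, adjusted p = 0.00143, edgeR), and H2-T22 rose by 0.23 on the log2 scale (adjusted p = 0.0115, edgeR). H2-T24 fell from 51.1 ± 4.89 to 30.2 ± 3.85 CPM (log2 fold change -0.76, adjusted p = 6.19e-05, edgeR), on the other side of H2-T23 from H2-T22. H2-Q6 shares 31.97% of its 50-base and 10.8% of its 100-base words with other genes, H2-T22 34.5% and 8.86%, and H2-T24 3.17% and 0.

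Of 15 genes for peptide supply and folding, 7 were higher and 1 was lower, which is 53.3% against 53.4% of all genes. Their median was 0.08, or 0.05 without B6.SLE123 mouse 2. The immunoproteasome subunit genes Psmb8 and Psmb9, which flank Tap1, rose from a mean of 210 to 278 CPM (n = 4 each) and from 224 ± 14.7 to 307 ± 41.4 CPM (log2 fold changes 0.41 and 0.46, adjusted p = 7.71e-05 and 0.00104, edgeR). The third subunit gene, Psmb10 on chromosome 8, was at 103 ± 6.32 and 104 ± 5.90 CPM (adjusted p = 0.824, edgeR). Psme1, which encodes a subunit of the proteasome activator PA28, rose by 0.39 on the log2 scale (adjusted p = 0.000198, edgeR), and its partner Psme2 by 0.38 (adjusted p = 5.82e-05, edgeR). Canx, a chaperone of newly made chains, fell from 433 ± 37.4 to 354 ± 5.62 CPM (log2 fold change -0.29, adjusted p = 0.00156, edgeR), while Calr and Pdia3, which join tapasin in the loading complex, had log2 fold changes of -0.03 and 0.08 (adjusted p = 0.768 and 0.374, edgeR).

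Among 17 genes listed for the control of class I and class II promoters, mostly transcription factors, 7 were higher and 1 was lower. That is 47.1% against 53.4% of all genes. Their median of 0.09 was 0.06 without C57BL/6 mouse 1 and 0.05 without B6.SLE123 mouse 2. Ciita, the class II counterpart of Nlrc5, rose from 924 ± 59.5 to 1306 ± 58.2 CPM (log2 fold change 0.50, adjusted p = 2.64e-05, edgeR). Nfya, a subunit of the factor that binds the Y box, rose by 0.35 and Kpna2, a nuclear import receptor, by 0.62 on the log2 scale (adjusted p = 3.71e-05 and 3.13e-05, edgeR). Rfxank, a subunit of the RFX complex shared by both transactivators, fell by 0.52 on the log2 scale, from 14.9 ± 0.838 to 10.5 ± 0.894 CPM (adjusted p = 0.000255, edgeR). Of 20 interferon response genes, 2 were higher and 6 were lower, which is 40.0% against 53.4% of all genes. Their median of -0.14 was -0.03 without B6.SLE123 mouse 1, -0.08 without C57BL/6 mouse 2 and -0.23 without B6.SLE123 mouse 2, and 6 to 10 of them passed with a mouse left out. Oasl1 rose by 0.61, and Ifit3, Gbp3 and Ifi44 fell by 0.89, 0.83 and 0.67 on the log2 scale (adjusted p = 0.00288, 0.00314, 2.22e-06 and 0.0363, edgeR).

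Of 5 class I-like chains encoded outside the complex, 4 were lower and 1 was higher, with a median of -0.38. That is 100% past the threshold against 53.4% of all genes. Fcgrt, the neonatal Fc receptor chain that pairs with B2m, fell from 252 ± 30.8 to 105 ± 12.4 CPM (log2 fold change -1.26, adjusted p = 2.34e-06, edgeR). Mr1, which presents vitamin B metabolites, fell by 1.17 and Cd1d1, which presents lipids, by 0.38 on the log2 scale (adjusted p = 4.11e-06 and 0.000511, edgeR). Procr, the endothelial protein C receptor, rose by 0.58 on the log2 scale (adjusted p = 7.70e-05, edgeR). Of 10 receptors that read class I, 5 were lower and 1 was higher, with a median of -0.51. The share past the threshold was 60%, near the 53.4% of all genes. Pirb, an inhibitory receptor of myeloid and B cells, fell from 501 ± 24.6 to 258 ± 24.2 CPM (log2 fold change -0.96, adjusted p = 1.12e-06, edgeR). Its activating relative Pira2 fell by 2.87 and the Ly49 gene Klra2 by 1.75 on the log2 scale (adjusted p = 7.63e-07 and 9.65e-06, edgeR), and both have close copies whose reads may be shared. Mr1 lies on chromosome 1 and Fcgrt, Pirb and Pira2 on chromosome 7, and whether they lie inside a Sle interval was not tested. The 10 red pulp markers were lower in the same mice, and their part in these falls was not tested.

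**Figure D5:**
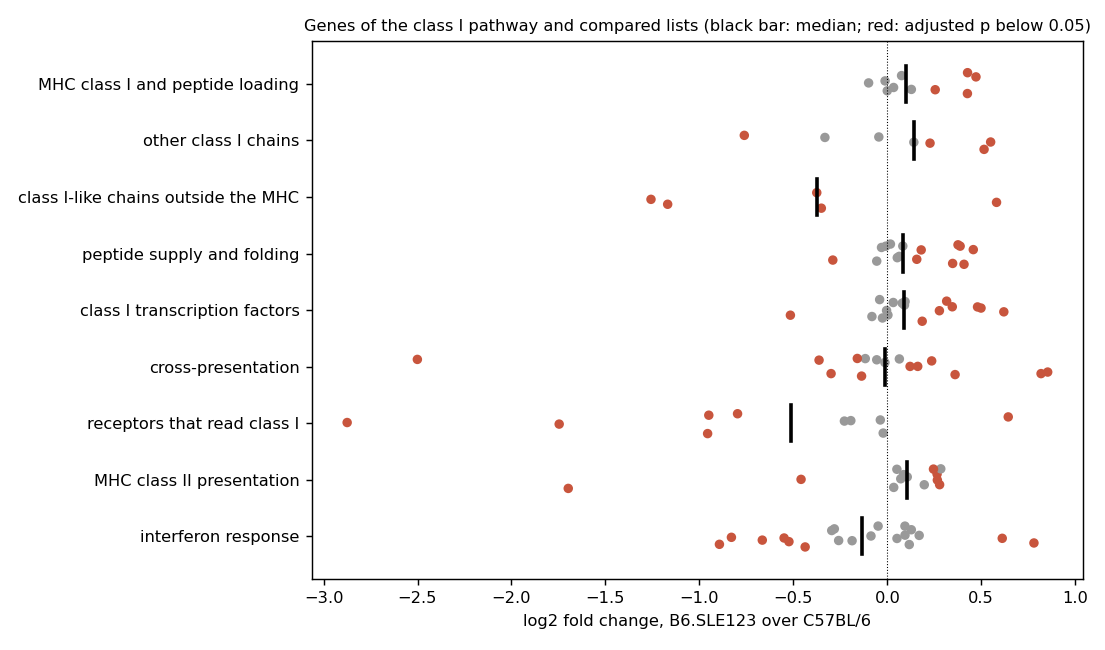
Log2 fold change, B6.SLE123 over C57BL/6, of every gene in the table from each list, with points spread vertically for legibility. Red points have an adjusted p below 0.05 and black bars are medians, from 0.14 for other class I chains to -0.51 for receptors that read class I.

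On chromosome 17, 121 genes of the table lie between the start of H2-K1 at 33996017 and the end of H2-M3 at 37274484, 7 of the 10 genes among them. Without those 7, 27 of 114 neighbours were higher and 26 were lower, which is 46.5%, and their median log2 fold change was 0.02. With the 7 included, the median was 0.03 and turned to -0.01 without B6.SLE123 mouse 4. The share of these neighbours past the threshold was below the 53.4% of all genes.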

How the data were processed

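RNA of CD11c-positive splenocytes from 8 mice was sequenced, with libraries made by a stranded kit. The authors' processing notes name cutadapt for trimming, STAR for alignment to mm10 and featureCounts for counting. Tool versions, annotation and strand setting are not given in the sources used here. The authors deposited raw counts for 13786 protein-coding genes, beside the fold changes, errors and p-values of their DESeq2 comparison, which were not used. Mice of a strain differed by more than sampling noise (chi-square per degree of freedom 4.96 to 18.9). The genotype labels count upward from mouse to mouse, so strain was taken from the sample titles. Nothing was filtered further.

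Strains were compared in edgeR 4.0.16 under R 4.3.3, with TMM factors, the quasi-likelihood test and Benjamini-Hochberg adjustment over all genes. Standard errors are the fold change over the root of F. Log2 CPM used a prior count of 2. In simulated data 200 of 13786 genes were changed, a far smaller share than the 53.4% that passed in the real data. There 44% of changes of the smallest size, below 1.5-fold, were recovered. Of 1.5-fold changes 78% and of 2-fold changes 94% were recovered, and 12 of 170 calls were false. These rates hold for the simulated share of changed genes only. Lengths and shared words came from GENCODE M21, promoters from RefSeq GRCm38.p6. Members and lists were chosen with earlier results of these data known. Beyond the members, genes were named where they passed the threshold without overlap between strains, at most 3 per direction and list with a mean of at least 50 counts. Psmb10, Psme2, Calr, Pdia3, Irf1 and, among markers, Itgax were named after their values were seen, and the most abundant gene of a marker list by rule. Alternatives were RLE, upper quartile or no scaling factors, at least 10 counts in every sample, DESeq2 1.42.0, limma-voom (limma 3.58.1), the replicate block, other lengths, a prior count of 0.5 and each mouse left out. The result of 1 listed gene is not reported here.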

Additional observations from a re-analysis of the deposited data

How the results depend on the processing

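In all settings that were run, 4 of the 10 genes were past the threshold and higher, apart from upper quartile scaling, where Tapbp made 5. With the replicate number as a block the number was 4; same-numbered mice of the strains shared only a number (correlation of their deviations -0.03 to 0.12), and 2 of 4 C57BL/6 mice matched best with their own number. Values near 0 changed sign: B2m was 0.017 with upper quartile scaling, 0.0012 with the replicate block and 0.0016 with limma-voom, and from -0.027 to 0.030 with a mouse left out, and H2-D1 was 0.0059 with upper quartile scaling and from -0.026 to 0.0045 with a mouse left out. With RLE or upper quartile factors 4 genes did not overlap between strains, against 3 with TMM factors. Without each mouse in turn 4 genes passed in every case and 3 to 5 did not overlap, with 5 without C57BL/6 replicate 2 and 5 without B6.SLE123 replicate 4. Also, the log2 fold change of Nlrc5 ran from 0.31 to 0.51, lowest without B6.SLE123 replicate 2, and the pathway genes past the threshold from 52 to 57. The ratio to B2m ran from -0.028 to 0.0063 for H2-D1 and from -0.14 to -0.050 for H2-M3, which did not overlap without B6.SLE123 replicate 2. With the longest transcript as length, C57BL/6 levels in RPKM were 1386 for H2-K1, 1344 for H2-D1, 223 for H2-T23, 100.4 for Tap1, 47.4 for Tap2, 125 for Tapbp and 34.1 for Nlrc5, by construction. Of the marker lists used above, type 2 conventional dendritic cells had 7 genes past the threshold with the replicate block or without B6.SLE123 replicate 1, against 4. Neutrophil markers past the threshold numbered 5, but 2 with at least 10 counts in every sample and 3 without C57BL/6 replicate 1 or B6.SLE123 replicate 4, erythroid markers 8 but 3 with that filter, which removes low genes, and T cell markers 3 but 5 with the replicate block. Natural killer cell markers past the threshold numbered 2, but 5 with the replicate block and 6 without B6.SLE123 replicate 1. The median of the cross-presentation list, near 0, ran from -0.065 to 0.0076 with a mouse left out and was 0.005 with upper quartile scaling, and that of the chromosome 17 genes ran from -0.010 to 0.058. The ratio of Tapbp to B2m ran from 0.081 to 0.15. In simulated data 44% of changes of the smallest size were recovered. Only 200 of 13786 genes were changed there, while 53.4% passed the threshold here, and the adjustment of p depends on that share. The 44% therefore does not measure how many small differences were missed here. With 4 mice per strain, some may have been.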

Other observations

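Class II presentation, the companion pathway for CD4+ T cells, was measured in the same mice. Of 13 genes in the table, 4 passed the threshold as higher and 2 as lower in the lupus-prone strain. That is 46.2% against 53.4% of all genes, and the list's median was 0.11 on the log2 scale. H2-Ab1, H2-Eb1 and H2-Aa, which encode class II chains, rose by 0.28, 0.27 and 0.26 on the log2 scale (adjusted p = 0.00221, 0.00574 and 0.00339, edgeR's quasi-likelihood test). The lysosomal proteases Lgmn and Ctss fell by 1.70 and 0.46 on the log2 scale (adjusted p = 2.17e-06 and 0.000303, edgeR), in mice whose red pulp macrophage markers were lower as well; the part of those cells was not tested.

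Cross-presentation, by which dendritic cells place outside antigen on class I, was listed with 15 genes. Of these, 6 were higher and 5 were lower, against 3683 higher and 3673 lower of all 13786 genes, and their median of -0.01 changed sign with upper quartile scaling and without C57BL/6 mouse 2 or 4 or B6.SLE123 mouse 1 or 3. Wdfy4, required for cross-presentation by type 1 conventional dendritic cells, rose from 1851 ± 121 to 3344 ± 189 CPM (SD, n = 4; log2 fold change 0.85, adjusted p = 1.21e-06, edgeR). Clec9a, a receptor for dead cells on the same subset, rose by 0.82 and Rab27a by 0.36 on the log2 scale, while the oxidase genes Cybb and Cyba fell by 0.36 and 0.30 (adjusted p = 0.000593, 0.00262, 0.000606 and 0.000895, edgeR). Rab34 fell by 2.50 on the log2 scale (adjusted p = 7.03e-07, edgeR), from 5.13 to 6.09 CPM in C57BL/6 mice to 0.726 to 1.18 CPM. Wdfy4 and Clec9a also stand in the type 1 marker list, of which 8 of 10 genes rose.

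No single mouse of a strain stood apart by Dixon's test in any of 38 groups of 4 values, of the 10 genes and of 9 ratios to B2m, where chance would give 1.9. The ratios all share B2m, so the groups are not independent. This test looks for 1 mouse and cannot flag 2 that stand apart together, as B6.SLE123 mice 2 and 3 do for Nlrc5.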
